A study of Homo sapiens with 60 samples.

Results

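The responses of SW1783 cells, a human astrocytoma line from the ATCC, to an extract of Schisandrae Fructus and to the decoction Soshiho-tang were set against each other, gene by gene. The contrast was chosen by groups and not by any measured value. It used 10 of the 60 libraries of the series: 3 at the high and 3 at the low dose of Schisandrae Fructus, and 2 at the high and 2 at the low dose of Soshiho-tang. Schisandrae Fructus, a dried fruit, was given as an ethanol extract at 310 µg/mL (high) and 12.4 µg/mL (low). Soshiho-tang, a decoction of several herbs, was given as a water extract at 500 µg/mL (high) and 20 µg/mL (low). Cells of all 4 groups were exposed for 24 h, and in both extracts the high dose was 25 times the low dose. The design text gives 500 µg/mL as the usual top dose and the IC20 as the top dose of extracts whose IC20 was lower, so the high doses were not matched in µg/mL and need not be matched in toxicity. The solvents of extraction differed too, and the contrast compares these pairs of doses, not the potency of the plants.

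A response was the log2 fold change of a gene at the high dose over the low dose of the same extract, and the difference of responses was the Schisandrae Fructus response minus the Soshiho-tang response. A positive difference therefore stands for a larger rise, or a smaller fall, with Schisandrae Fructus. Each extract was compared within its own library set (the first part of the library name, whose meaning is not given in the sources used here), so a shift between sets that is equal at both doses cancels, and the responses share no libraries. A gene passed at a Benjamini-Hochberg adjusted p under 0.05 in edgeR's quasi-likelihood test over all 17851 genes tested, of 60675 in the table. Levels are CPM, counts scaled to a common library size, given for each library, and errors of log2 values are standard errors. Nothing in the sources says that the libraries of a group came from separate cultures, so a p-value reflects how far these libraries spread, which may be technical.

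The high-dose libraries of Schisandrae Fructus held 29.66 to 32.57 M counts and its low-dose libraries 20.71 to 26.07 M. Those of Soshiho-tang held 29.82 to 30.42 M at the high and 19.02 to 27.7 M at the low dose. Of 8 astroglial markers only VIM, SOX9, SLC1A3 and NES were expressed, with SLC1A3 at 10.7 to 28.9 CPM. GFAP, S100B, AQP4 and ALDH1L1 lay between 0 and 0.302 CPM, so the labelled astrocytoma line held some astrocyte transcripts and nearly lacked others. Markers of other cell types were not all near 0: the endothelial receptor gene KDR held 30.2 to 41.0 CPM and the neuronal gene SNAP25 11.3 to 31.5 CPM over the 10 libraries. The summed level of 5 neuronal markers was 23.9 to 28.5 CPM at high and 52.1 to 55.9 CPM at low Schisandrae Fructus, and 41.6 to 42.5 CPM at high and 50.5 to 52.0 CPM at low Soshiho-tang. That of 5 immune markers was 3.77 to 4.32 CPM at high and 11.0 to 13.5 CPM at low Schisandrae Fructus, and 8.38 to 8.63 CPM at high and 12.6 to 13.2 CPM at low Soshiho-tang, with the microglial gene AIF1 at 0 in all 10 libraries. The sum of 4 endothelial markers was 37.6 to 41.9 CPM at high and 32.1 to 33.1 CPM at low Schisandrae Fructus, and 34.9 to 37.9 CPM at high and 31.3 to 31.5 CPM at low Soshiho-tang, nearly all of it KDR, while CDH5 and VWF stayed between 0 and 0.133 CPM. That of the 8 astroglial markers was 4879 to 5175 CPM at high and 4630 to 4813 CPM at low Schisandrae Fructus, and 5383 to 5555 CPM at high and 5134 to 5144 CPM at low Soshiho-tang, nearly all of it VIM. Their part in the results was not tested.

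Cells that meet plant compounds can answer through several transcription programmes. The unfolded protein response raises chaperones of the endoplasmic reticulum; the amino acid response, run by the factor ATF4, raises amino acid transporters and synthesis enzymes; and NRF2 raises antioxidant enzymes such as haem oxygenase. SREBP factors drive cholesterol and fatty acid synthesis, NF-kB drives cytokines and chemokines, and MondoA, a sensor of glucose phosphates, drives TXNIP and ARRDC4. In glial tumour cells these programmes bear on survival, matrix and inflammatory signalling.

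The responses differed in 4310 genes, 24.1% of those tested: 1949 (10.9%) had the higher and 2361 (13.2%) the lower response with Schisandrae Fructus, a balance that rests on the scaling, since upper quartile normalization gave 2180 higher and 2131 lower. The difference was at least 2-fold in 285 of the first (1.6% of genes tested) and 419 of the second (2.35%). Between its doses, Schisandrae Fructus changed 8195 genes (45.9%): 3976 rose (22.3%) and 4219 fell (23.6%). Of these genes, 444 rose (2.49% of genes tested) and 660 fell (3.7%) by at least 2-fold. Soshiho-tang changed 3316 (18.6%; 1770 rose, 9.92%, and 1546 fell, 8.66%), and 2149 when its low-dose replicate 3 was left out; 215 of its rises (1.2%) and 224 of its falls (1.25%) were at least 2-fold. The Soshiho-tang split rests on the scaling: with upper quartile normalization 1393 rose and 1962 fell. The median size of a response over all genes was 0.27 on the log2 scale for Schisandrae Fructus and 0.18 for Soshiho-tang, and the median standard error was 0.10 for Schisandrae Fructus and 0.12 for Soshiho-tang, which had fewer libraries.

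Both extracts changed 2267 genes, which were 27.7% of the genes called for Schisandrae Fructus and 68.4% of those called for Soshiho-tang. Of these, 82.4% moved the same way: 930 rose with both (5.21% of genes tested) and 939 fell with both (5.26%). The other 398 moved in opposite directions. The difference of responses passed in each of the 398, which passing in both extracts with opposite signs made nearly certain. With Schisandrae Fructus 177 of them rose (0.992%) and 221 fell (1.24%). This balance turned with other scalings, to 226 that rose and 177 that fell with upper quartile normalization and 295 and 260 with the length and GC correction. The count of opposite genes depended on the Soshiho-tang libraries, each of which is 1 of a pair: it was 254 without high-dose replicate 3, 258 without low-dose replicate 2 and 246 without low-dose replicate 3. Across all genes the responses had a Pearson's r of 0.20 and a Spearman's rho of 0.30, a description over genes, which are not independent.

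A call in 1 extract alone did not by itself mark a difference. Of the 5928 genes (33.2%) past the threshold only with Schisandrae Fructus, 2604 (14.6%) also passed in the difference, and of the 1049 (5.88%) past it only with Soshiho-tang, 589 (3.3%) did. The other 8607 (48.2%) passed with neither, of which 174 passed in the difference. For 8008 genes (44.9%) the 95% interval of the difference lay within 1.5-fold, so that for these a larger difference was outside the interval. Among the genes that moved the same way this held for 657 of the 930 rises (3.68% of genes tested) and 588 of the 939 falls (3.29%). Where the difference did pass among shared rises, 149 were larger with Schisandrae Fructus (0.835%) and 136 with Soshiho-tang (0.762%). Among shared falls, 194 were larger with Schisandrae Fructus (1.09%) and 66 with Soshiho-tang (0.37%). Gene lists are described by how many members passed, which is to be read against the shares of all genes tested: 22.3% rose and 23.6% fell with Schisandrae Fructus, 9.92% rose and 8.66% fell with Soshiho-tang, and the difference was higher for 10.9% and lower for 13.2%.

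**Figure D1:**
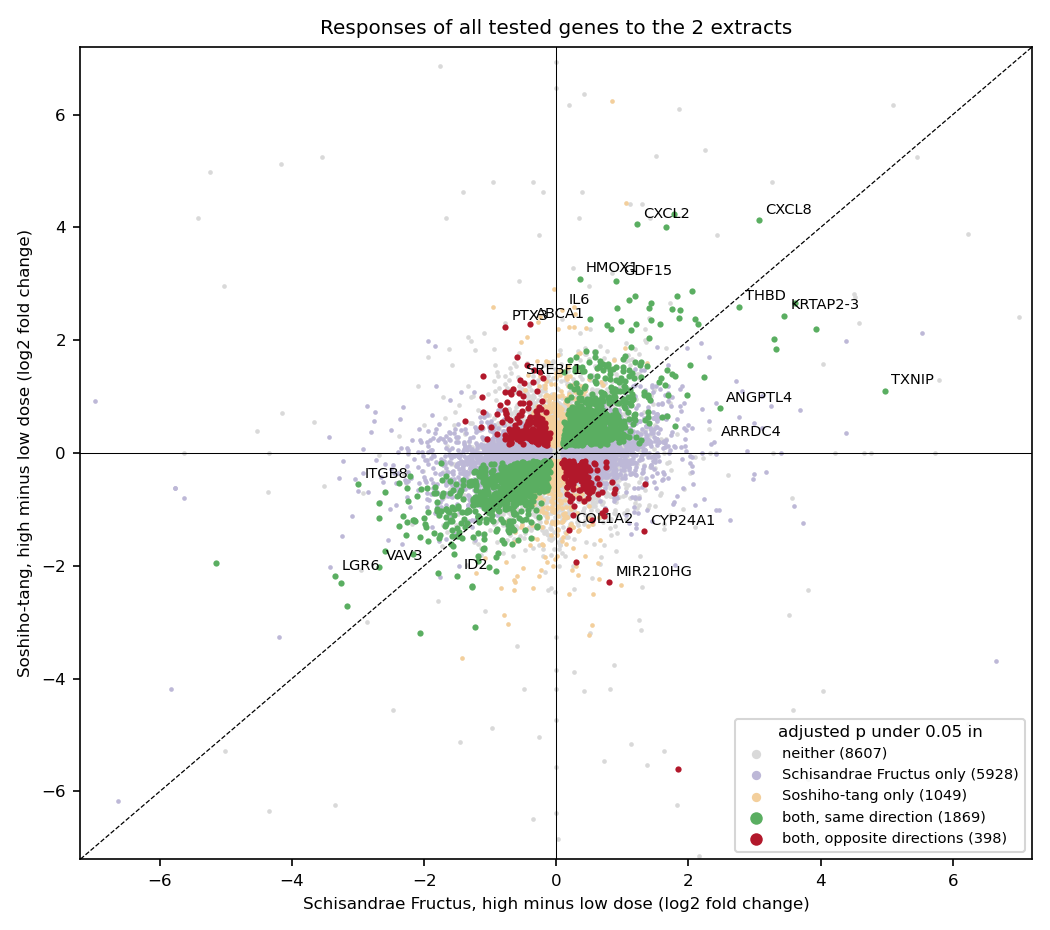
Each point is 1 of the tested genes, with its log2 fold change between high and low dose of Schisandrae Fructus on the x axis and of Soshiho-tang on the y axis; colours give the extracts in which it passed, and the dashed line marks equal responses. TXNIP lies far right of the line, HMOX1 and CXCL2 lie above it, and 10 genes beyond 7.2 on either axis are not drawn.

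Among genes of 5 CPM or more whose libraries separated, the largest difference toward Schisandrae Fructus was that of TXNIP, whose product binds thioredoxin and limits glucose uptake. TXNIP stood at 295, 276 and 289.5 CPM at high and 9.53, 9.25 and 8.59 CPM at low Schisandrae Fructus, and at 19 and 20.1 CPM at high and 8.57 and 9.49 CPM at low Soshiho-tang. All high-dose libraries lay above all low-dose libraries of the same extract, and the 3 high Schisandrae Fructus libraries stood far above the rest. The response was 4.97 ± 0.076 with Schisandrae Fructus (31.4-fold) and 1.11 ± 0.097 with Soshiho-tang (2.15-fold), a difference of 3.86 ± 0.13 (95% interval 3.61 to 4.12, adjusted p = 9.02e-26). Both responses passed, so the extracts raised TXNIP together and by unequal amounts.

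ARRDC4, an arrestin-domain relative of TXNIP and the other classic target of MondoA, held 31.6, 28.1 and 28.6 CPM at high and 6.47, 5.23 and 5.05 CPM at low Schisandrae Fructus, against 5.76 and 6.77 CPM at high and 5.15 and 5.78 CPM at low Soshiho-tang. The Soshiho-tang doses were close, with 1 high-dose library between its low-dose libraries. The difference was 2.21 ± 0.15 (adjusted p = 1.21e-15). Of the 5 genes listed for the MondoA sugar response, 4 rose and 1 fell with Schisandrae Fructus, 1 rose and 1 fell with Soshiho-tang, and the difference passed for TXNIP and ARRDC4 alone. ARRDC3, a related arrestin-domain gene, fell alike with both (-0.47 with Schisandrae Fructus, -0.46 with Soshiho-tang), and the factor MLXIP, which encodes MondoA itself, had responses of 0.28 with Schisandrae Fructus and 0.022 with Soshiho-tang.

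The TXNIP promoter is shown because this gene had the largest difference. The bases before a start of this gene also hold a match to a pair of E-boxes, the kind of element that MondoA is known to bind. The 250 bases before this start, on the minus strand at chr1:145996580-145996829 in GRCh38.p14 (RefSeq), read as follows, with the match in capitals.
TXNIP: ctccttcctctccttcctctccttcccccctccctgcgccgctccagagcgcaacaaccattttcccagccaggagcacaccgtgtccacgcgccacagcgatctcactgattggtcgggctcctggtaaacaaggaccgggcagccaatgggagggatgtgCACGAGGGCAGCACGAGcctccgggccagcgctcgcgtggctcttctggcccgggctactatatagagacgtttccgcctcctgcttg
The letters searched were CACGNG, any 5 bases and CACGNG again, where N is any base, on both strands of windows that run from 250 bases before to 50 after each start. The match began 88 bases before the start and overlapped no other motif searched. Of 27305 genes with such a window 20 held the motif (0.0732%), and of 12015 tested genes with one 16 did (0.133%). Another start of TXNIP, with its 250 bases at chr1:145995745-145995994, had no match in its window. ARRDC4 had no match to these letters in its window.

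Among genes of 5 CPM or more that rose with Schisandrae Fructus and fell with Soshiho-tang, the smaller of the responses was largest for CYP24A1, the enzyme that breaks down active vitamin D. It held 31.9, 29.5 and 30.6 CPM at high and 12.1, 13.1 and 11.5 CPM at low Schisandrae Fructus, and 5.09 and 4.94 CPM at high and 12.8 and 13.4 CPM at low Soshiho-tang. The low doses of the extracts were alike, and the high doses lay on either side of them without overlap. The responses of 1.32 ± 0.066 with Schisandrae Fructus and -1.39 ± 0.097 with Soshiho-tang gave a difference of 2.71 ± 0.12 (adjusted p = 7.79e-22). MIR210HG, the host transcript of a microRNA known as a hypoxia target, held 6.91, 7.49 and 7.77 CPM at high and 4.57, 4.29 and 3.77 CPM at low Schisandrae Fructus, against 1.23 and 0.883 CPM at high and 5.10 and 5.24 CPM at low Soshiho-tang. The groups of each extract did not overlap, and the difference was 3.09 ± 0.25 (adjusted p = 5.86e-13), next in size to that of TXNIP among the named genes.

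RASL11A, a small GTPase of the Ras family, rose slightly with Schisandrae Fructus (10.9, 12.6 and 11.2 CPM at high and 10.0, 9.74 and 8.54 CPM at low dose) and fell sharply with Soshiho-tang (2.53 and 2.22 CPM at high and 9.04 and 9.16 CPM at low dose). The difference was 2.23 ± 0.16 (adjusted p = 3.29e-14). NPTX1, a neuronal pentraxin, was opposite and differed by 1.89. The difference of SERPINB3, a protease inhibitor with a near-identical neighbour gene between which reads can be split, was 1.86. The Soshiho-tang response of SERPINB3 did not pass (-0.62, adjusted p = 0.0867). HRCT1, CYP2S1 (a cytochrome P450), NMNAT2 (an NAD synthesis enzyme) and CGB7, 1 of a family of near-identical hormone genes, were also opposite, with differences of 1.76, 1.38, 1.36 and 1.18. The antisense transcripts KRT7-AS (1.83) and ZNF436-AS1 (1.59) followed the same pattern. The strand setting of the counting is not given, so their reads cannot be told apart from those of the genes they overlap.

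Of 20 hypoxia targets, 9 rose and 6 fell with Schisandrae Fructus, 5 rose and 8 fell with Soshiho-tang, and the difference was higher for 12, against 10.9% of all genes, with a median of 0.26 against -0.016 over all genes tested. NDRG1, a stress and differentiation gene, held 117, 129 and 128 CPM at high and 56.2, 57.6 and 60.4 CPM at low Schisandrae Fructus, against 45.4 and 46.5 CPM at high and 50.1 and 51.8 CPM at low Soshiho-tang. Its Schisandrae Fructus groups stood well apart, and its Soshiho-tang response did not pass (-0.15, adjusted p = 0.115). EGLN3, a prolyl hydroxylase that marks HIF for decay, did not pass with Schisandrae Fructus (-0.17) and fell with Soshiho-tang (2.00 and 1.70 CPM at high, 6.57 and 6.67 CPM at low), and its difference was 1.67 ± 0.19 (adjusted p = 7.80e-09). CA9, a carbonic anhydrase, had a Schisandrae Fructus response of 0.078 that did not pass, and fell with Soshiho-tang (-0.86). PDK1, the kinase that holds back pyruvate dehydrogenase, was opposite (0.26 with Schisandrae Fructus, -0.54 with Soshiho-tang).

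Of 20 glycolysis genes, 5 rose, near the 22.3% of all genes, and 8 fell with Schisandrae Fructus. With Soshiho-tang 1 rose and 13 fell, against 8.66% of all genes that fell, and the difference was higher for 9 and lower for 3. HK2, a hexokinase, was opposite, at 80.5, 76.5 and 76.7 CPM at high and 45.6, 44.3 and 49.1 CPM at low Schisandrae Fructus, and 36.5 and 38.5 CPM at high and 43.0 and 45.3 CPM at low Soshiho-tang. PFKFB3, which makes an activator of glycolysis, did not pass with Schisandrae Fructus (0.054) and fell with Soshiho-tang (-0.74), a difference of 0.79 ± 0.071 (adjusted p = 1.04e-11). LDHA, PGK1, GAPDH, TPI1, PGAM1, PFKFB4 and PKM fell with both extracts. The glucose transporter gene SLC2A3 ran the other way, with responses of 0.080 with Schisandrae Fructus and 0.78 with Soshiho-tang.

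Most matrix genes fell with Soshiho-tang, and as many rose as fell with Schisandrae Fructus. Of 25 extracellular matrix genes, 8 rose and 8 fell with Schisandrae Fructus, 1 rose and 15 fell with Soshiho-tang, and the difference was higher for 16 (median 0.30). COL1A2, a chain of type I collagen, held 1768, 1785 and 1825 CPM at high and 1579, 1584 and 1560 CPM at low Schisandrae Fructus, against 623 and 606 CPM at high and 1587 and 1559 CPM at low Soshiho-tang. The 2 high Soshiho-tang libraries were far below the other 8, and the difference was 1.54 ± 0.056 (adjusted p = 1.59e-24). Its partner chain COL1A1 held 3182, 3196 and 3315 CPM at high and 3328, 3450 and 3364 CPM at low Schisandrae Fructus, against 1406 and 1371 CPM at high and 3341 and 3245 CPM at low Soshiho-tang, a difference of 1.18 ± 0.071. The basement membrane chains COL4A1 (0.34 with Schisandrae Fructus, -0.65 with Soshiho-tang) and COL4A2 (0.17 with Schisandrae Fructus, -0.59 with Soshiho-tang) were opposite. COL3A1 fell with both (-0.64 with Schisandrae Fructus, -1.06 with Soshiho-tang), and so did COL5A1 (-0.30 with Schisandrae Fructus, -1.3 with Soshiho-tang) and COL8A1 (-0.34 with Schisandrae Fructus, -0.76 with Soshiho-tang).

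Among 18 targets of TGF-beta and YAP, 5 rose with Schisandrae Fructus, near the 22.3% of all genes, and 7 fell, against 23.6%. With Soshiho-tang 2 rose and 8 fell, against 9.92% and 8.66% of all genes, and the difference was higher for 7 and lower for 2. TGFB1 itself (0.21 with Schisandrae Fructus, -0.24 with Soshiho-tang) and AMOTL2 (0.20 with Schisandrae Fructus, -0.27 with Soshiho-tang) were opposite. CCN3, a matricellular protein, fell with Schisandrae Fructus (-1.10), with a Soshiho-tang response of -0.19 and a difference of -0.90.

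Of 28 genes of mitosis, 19 rose and 1 fell with Schisandrae Fructus, 17 fell with Soshiho-tang, and 12 were opposite. The difference was higher for 21, with a median of 0.41. KIF20A, a kinesin of cytokinesis, held 158, 158 and 155 CPM at high and 121, 118 and 128 CPM at low Schisandrae Fructus, against 79.5 and 79.6 CPM at high and 128 and 124 CPM at low Soshiho-tang. No group of 1 extract overlapped the other dose, and the difference was 1.02 ± 0.066 (adjusted p = 6.35e-16). CCNA2 (cyclin A, 0.86), BUB1 (a spindle checkpoint kinase, 0.75) and KIF2C (a kinesin that takes microtubules apart at their ends, 0.55) also differed. MKI67, the proliferation marker, held 295, 292 and 233 CPM at high and 254, 268 and 293 CPM at low Schisandrae Fructus, which overlapped, against 197 and 203 CPM at high and 275 and 266 CPM at low Soshiho-tang, which did not. Its difference did not pass (0.45 ± 0.29, interval -0.13 to 1.02, adjusted p = 0.286), and it passed in 4 of 21 alternatives. In bulk RNA, fewer cells in mitosis and less of these transcripts per cell cannot be told apart.

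Of 32 replication genes, which act in S phase, 25 fell with Schisandrae Fructus, 2 rose and 10 fell with Soshiho-tang, and the difference was higher for 1 and lower for 9 (median -0.16). MCM3, part of the replicative helicase, fell with both: it held 62.7, 68.5 and 68.7 CPM at high and 120.2, 115 and 119 CPM at low Schisandrae Fructus, and 98.9 and 95.8 CPM at high and 128 and 122 CPM at low Soshiho-tang. CDC6, which loads the helicase, was opposite but by little: -0.22 with Schisandrae Fructus and 0.22 with Soshiho-tang, with the interval of the difference, -0.56 to -0.32, inside 1.5-fold. GINS3 and GINS4, subunits of the same helicase complex, fell with Schisandrae Fructus (-0.61 for GINS3 and -0.51 for GINS4) and did not pass with Soshiho-tang (0.11 for GINS3 and 0.035 for GINS4).

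Chaperones of the endoplasmic reticulum differed between the extracts in both directions. Of 26 folding genes, 19 rose and 2 fell with Schisandrae Fructus, 9 rose and 1 fell with Soshiho-tang, and the difference was higher for 10 and lower for 6. HSPA5, the main chaperone of this compartment, held 5246, 5423 and 5634 CPM at high and 3059, 2926 and 2903 CPM at low Schisandrae Fructus, against 3220 and 3328 CPM at high and 3112 and 2934 CPM at low Soshiho-tang. The high Schisandrae Fructus libraries stood above all others, the Soshiho-tang response did not pass (0.12, adjusted p = 0.0882), and the difference was 0.76 ± 0.061 (adjusted p = 5.04e-13). HSP90B1, its partner chaperone, was opposite, with 2325, 2236 and 2361 CPM at high and 1410, 1362 and 1345 CPM at low Schisandrae Fructus and 1247 and 1247 CPM at high and 1445 and 1339 CPM at low Soshiho-tang, a difference of 0.91 ± 0.061. PDIA4, a disulphide isomerase, differed by 0.91 ± 0.060, and MANF, a secreted stress factor, by 0.56.

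The folding genes with a lower difference were HERPUD1, XBP1, DNAJB9, DNAJC3, ERN1 and DNAJC10. HERPUD1, which serves the removal of misfolded proteins, held 80.2, 80.3 and 80.9 CPM at high and 65.5, 65.3 and 64.6 CPM at low Schisandrae Fructus, against 219 and 208 CPM at high and 66.3 and 64.6 CPM at low Soshiho-tang. It rose with both, and the high Soshiho-tang libraries stood far above the rest (difference -1.40 ± 0.071, adjusted p = 1.62e-19). DNAJB9, a co-chaperone, rose by 0.39 with Schisandrae Fructus and 1.45 with Soshiho-tang, and ERN1, the sensor IRE1, by 0.73 with Schisandrae Fructus and 1.32 with Soshiho-tang.

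The promoters of HSPA5 and HSP90B1 are shown because both chaperones rose with Schisandrae Fructus and hold matches to the endoplasmic reticulum stress element, searched as CCAAT, any 9 bases and CCACG on both strands. They are the 250 bases before each start in GRCh38.p14 (RefSeq), HSPA5 on the minus strand at chr9:125241344-125241593 and HSP90B1 on the plus strand at chr12:103930160-103930409, with matches in capitals.
HSPA5: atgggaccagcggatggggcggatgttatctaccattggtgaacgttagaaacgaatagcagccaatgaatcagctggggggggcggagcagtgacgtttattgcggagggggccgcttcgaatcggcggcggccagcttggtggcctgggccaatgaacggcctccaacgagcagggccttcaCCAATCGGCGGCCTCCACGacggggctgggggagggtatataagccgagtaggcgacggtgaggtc
HSP90B1: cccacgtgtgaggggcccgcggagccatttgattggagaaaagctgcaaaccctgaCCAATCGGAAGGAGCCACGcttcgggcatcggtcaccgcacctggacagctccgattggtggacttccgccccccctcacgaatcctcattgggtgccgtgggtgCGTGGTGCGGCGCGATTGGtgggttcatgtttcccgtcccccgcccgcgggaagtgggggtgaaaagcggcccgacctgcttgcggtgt
The HSPA5 match began 66 bases before the start, HSP90B1 held 2 matches on opposite strands, and none overlapped another motif searched. The motif lay in 7 of the 23 folding genes that had a window, against 0.0916% of all genes and 0.133% of tested genes. The 7 were HSPA5, HSP90B1, PDIA6, CALR, CANX, XBP1 and CRELD2, and their responses were not uniform: CANX did not pass with either extract, and XBP1 rose less with Schisandrae Fructus (0.24) than with Soshiho-tang (0.77).

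Of 19 cytosolic heat shock genes, 10 rose and 3 fell with Schisandrae Fructus, 3 fell with Soshiho-tang, and the difference was higher for 9 and lower for 3. HSPA1A, an inducible chaperone whose reads can be shared with its near-identical copy HSPA1B, held 127, 151 and 145 CPM at high and 104, 98.4 and 97.3 CPM at low Schisandrae Fructus, against 99.3 and 100 CPM at high and 101 and 103 CPM at low Soshiho-tang. The high Schisandrae Fructus libraries were the highest of the 10 (difference 0.53 ± 0.074, adjusted p = 4.55e-07). STIP1, an adaptor between chaperones, differed by 0.53. HSPB8, a small heat shock protein, fell with Schisandrae Fructus (-0.92), with a Soshiho-tang response of -0.068 and a difference of -0.85.

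**Figure D2:**
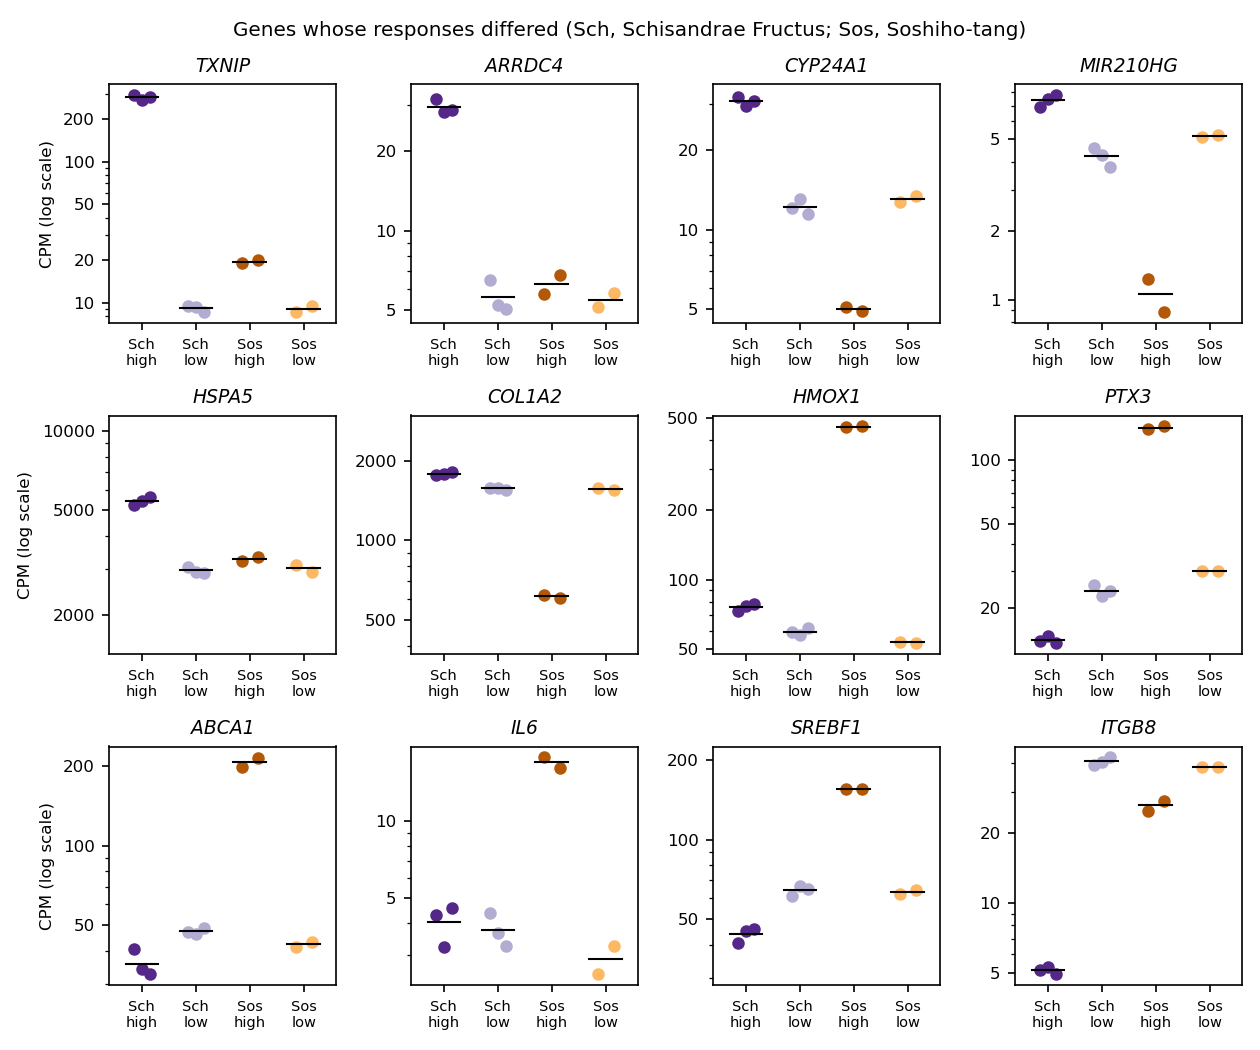
Levels in CPM (log scale) of 12 genes whose responses differed, in the libraries of high and low Schisandrae Fructus and high and low Soshiho-tang; each point is a library and each bar a group mean. TXNIP, ARRDC4, CYP24A1 and HSPA5 stand highest at high Schisandrae Fructus, COL1A2 and MIR210HG lowest at high Soshiho-tang, HMOX1, PTX3, ABCA1, IL6 and SREBF1 highest at high Soshiho-tang, and ITGB8 lowest at high Schisandrae Fructus.

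Many genes of sterol and fatty acid synthesis fell with Schisandrae Fructus and rose with Soshiho-tang. Of 25 genes of cholesterol synthesis and uptake, 3 rose and 12 fell with Schisandrae Fructus, 17 rose with Soshiho-tang, and 8 were opposite. The difference was lower for 15, with a median of -0.47. INSIG1, which holds SREBP in the endoplasmic reticulum, held 116, 108 and 109.5 CPM at high and 143, 139 and 142 CPM at low Schisandrae Fructus, against 306 and 320.4 CPM at high and 133 and 128 CPM at low Soshiho-tang, a difference of -1.62 ± 0.067. Synthesis enzymes differed by less: HMGCS1 by -0.61 and LSS by -0.86. FDFT1, SQLE and MVD rose with both extracts.

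Of 12 genes of fatty acid synthesis, 1 rose and 9 fell with Schisandrae Fructus, 9 rose and 1 fell with Soshiho-tang, and 6 were opposite. The difference was lower for 9 (median -0.70). SREBF1, the factor that drives this programme, held 40.8, 44.9 and 45.8 CPM at high and 61, 67.0 and 65.0 CPM at low Schisandrae Fructus, against 155 and 156 CPM at high and 62.0 and 64.3 CPM at low Soshiho-tang. The high Soshiho-tang libraries were the highest and the high Schisandrae Fructus libraries the lowest, with no overlap, and the difference was -1.85 ± 0.12 (adjusted p = 3.05e-16). SCD, a desaturase, held 213, 191 and 188 CPM at high and 239, 253 and 258 CPM at low Schisandrae Fructus, against 687 and 709 CPM at high and 255 and 246 CPM at low Soshiho-tang, a difference of -1.82 ± 0.14. FADS2, another desaturase, was opposite too (-0.65 with Schisandrae Fructus, 0.41 with Soshiho-tang), and ACSL3, which activates fatty acids, had a Schisandrae Fructus response of 0.0086 that did not pass and rose with Soshiho-tang (0.79; difference -0.78).

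Among genes of cholesterol export, ABCA1, a pump that moves cholesterol out of cells and a target of LXR, held 40.6, 34.1 and 32.7 CPM at high and 47.0, 46.4 and 48.7 CPM at low Schisandrae Fructus, against 199 and 216 CPM at high and 41.5 and 43.4 CPM at low Soshiho-tang. The high Soshiho-tang libraries stood far above the other 8, and the high Schisandrae Fructus libraries were the lowest of all (difference -2.69 ± 0.20, adjusted p = 9.12e-14). Of 9 genes of this list, 2 rose and 4 fell with Schisandrae Fructus, 5 rose with Soshiho-tang, and the difference was lower for 5. ABCG1, another pump, had responses of 0.025 with Schisandrae Fructus and 2.20 with Soshiho-tang, LPCAT3, a phospholipid enzyme, was opposite (-0.46 with Schisandrae Fructus, 0.39 with Soshiho-tang), and MYLIP, a ubiquitin ligase, fell with Schisandrae Fructus (-0.69).

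Among genes of lipid droplets and fat use, ANGPTL4, a lipoprotein lipase inhibitor and PPAR target, held 58.9, 67.8 and 71.4 CPM at high and 11.9, 11.4 and 12.4 CPM at low Schisandrae Fructus, against 20.5 and 20.0 CPM at high and 12.0 and 11.4 CPM at low Soshiho-tang. It rose with both, more with Schisandrae Fructus (difference 1.68 ± 0.16, adjusted p = 2.85e-11). PLIN2, which coats lipid droplets, rose with both by nearer amounts, 1.19 with Schisandrae Fructus and 1.61 with Soshiho-tang, with an interval of -0.55 to -0.27 that stayed within 1.5-fold. Of the 9 genes in this list, 4 rose and 1 fell with Schisandrae Fructus, 3 rose with Soshiho-tang, and the difference was higher for 2 and lower for 2.

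Of 25 lysosome and autophagy genes, 7 rose with Schisandrae Fructus, near the 22.3% of all genes, and 13 fell, against 23.6%; 11 rose with Soshiho-tang, and the difference was higher for 3 and lower for 13. SQSTM1, the autophagy receptor p62, held 373, 375 and 392 CPM at high and 549.5, 530.4 and 518 CPM at low Schisandrae Fructus, against 1273 and 1251 CPM at high and 534 and 535 CPM at low Soshiho-tang. The doses of each extract did not overlap, and the difference was -1.73 ± 0.085 (adjusted p = 6.97e-20). OPTN, another autophagy receptor, and MCOLN1, a lysosomal channel, were opposite as well, with differences of -0.87 and -0.84.

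Outside these lists, PTX3, a secreted pentraxin of innate immunity, had the largest difference toward Soshiho-tang among genes of 5 CPM or more whose libraries separated. It held 14.1, 14.8 and 13.7 CPM at high and 25.8, 22.8 and 24.1 CPM at low Schisandrae Fructus, against 139.8 and 144 CPM at high and 29.9 and 30.1 CPM at low Soshiho-tang. It fell with Schisandrae Fructus and rose with Soshiho-tang, and the doses of each extract did not overlap (difference -3.01 ± 0.12, adjusted p = 8.20e-23). RRAD, a GTPase that restrains calcium channels, held 2.80, 3.11 and 3.70 CPM at high and 7.40, 6.06 and 7.69 CPM at low Schisandrae Fructus, against 18.1 and 18.3 CPM at high and 9.78 and 8.52 CPM at low Soshiho-tang, a difference of -2.13 ± 0.22. FBXO32, a ubiquitin ligase subunit known from muscle wasting, was opposite by nearly equal amounts (-0.85 with Schisandrae Fructus, 0.85 with Soshiho-tang). HDAC9 (a histone deacetylase, -1.80), CITED2 (a CBP/p300 partner, -1.44), TMEM135 (-1.54), EVI2A (-1.59) and the antisense transcript ZMIZ1-AS1 (-1.83), whose reads cannot be told apart from those of the gene it overlaps, were opposite too. CLDN1, a tight junction protein, did not pass with Schisandrae Fructus (-0.25) and rose with Soshiho-tang (24.7 and 24.6 CPM at high, 4.68 and 4.60 CPM at low), a difference of -2.66.

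Many inflammatory genes rose with both extracts, and many had the larger response with Soshiho-tang. Of 26 NF-kB target and cytokine genes, 17 rose and 4 fell with Schisandrae Fructus, 23 rose with Soshiho-tang, 17 moved the same way with both and 2 were opposite. The difference was lower for 20 and higher for 1, and its median was -0.97. CXCL8, the neutrophil attractant interleukin 8, held 21.7, 18.9 and 22.9 CPM at high and 2.56, 2.56 and 2.45 CPM at low Schisandrae Fructus, against 63.9 and 62.5 CPM at high and 3.57 and 3.64 CPM at low Soshiho-tang. Every high-dose library stood above every low-dose library, with responses of 3.06 ± 0.12 with Schisandrae Fructus and 4.13 ± 0.13 with Soshiho-tang and a difference of -1.06 ± 0.19 (adjusted p = 3.00e-05). The related chemokines CXCL2 and CXCL3, whose sequences are close enough to share reads, were low in most libraries. CXCL2 held 1.18, 0.936 and 0.853 CPM at high and 0.310, 0.527 and 0.425 CPM at low Schisandrae Fructus, against 11.1 and 9.55 CPM at high and 0.578 and 0.642 CPM at low Soshiho-tang. It rose with both without overlap (difference -2.84 ± 0.40, adjusted p = 5.02e-07), and the difference of CXCL3 was -2.35 ± 0.48.

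IL6, a cytokine of glial inflammation, rose with Soshiho-tang, and its Schisandrae Fructus response did not pass (0.093, adjusted p = 0.632). It held 4.31, 3.23 and 4.58 CPM at high and 4.38, 3.65 and 3.26 CPM at low Schisandrae Fructus, which overlapped, against 17.7 and 16.1 CPM at high and 2.52 and 3.25 CPM at low Soshiho-tang, which did not. The difference was -2.44 ± 0.22 (adjusted p = 1.02e-11). LIF, a cytokine of the same family, rose with both (0.77 with Schisandrae Fructus, 2.27 with Soshiho-tang), as did the adhesion gene ICAM1 (0.29 with Schisandrae Fructus, 1.51 with Soshiho-tang). TNFAIP3, a brake on NF-kB, had a Schisandrae Fructus response of 0.058 that did not pass and rose with Soshiho-tang (1.38; difference -1.32). The inhibitor NFKBIA (-0.23 with Schisandrae Fructus, 0.77 with Soshiho-tang) and the subunit NFKB1 (-0.22 with Schisandrae Fructus, 0.40 with Soshiho-tang) were opposite. The 1 gene of the list with a higher difference was IL1B, named after its values were seen, with responses of 2.23 with Schisandrae Fructus and 1.35 with Soshiho-tang, and the response of PTGS2 (cyclooxygenase 2) was nearly equal with both (1.11 with Schisandrae Fructus, 1.12 with Soshiho-tang).

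Of 27 interferon-stimulated genes, 3 rose and 16 fell with Schisandrae Fructus, against 23.6% of all genes that fell, 3 rose and 2 fell with Soshiho-tang, and the difference was higher for 2 and lower for 11. The median difference of -0.49 depended on single Soshiho-tang libraries: it was -0.18 without high-dose replicate 3, -0.19 without low-dose replicate 3 and -0.77 without high-dose replicate 2. IFIT3, an antiviral effector, held 10.9, 10.1 and 13.3 CPM at high and 22.5, 23.7 and 24.0 CPM at low Schisandrae Fructus, against 30.2 and 30.7 CPM at high and 29.2 and 25.3 CPM at low Soshiho-tang. Its Schisandrae Fructus doses were far apart and its Soshiho-tang doses close, a difference of -1.19 ± 0.16. IFI44 (-0.99) and XAF1 (-1.45) also differed. IRF1, an interferon-response factor that NF-kB also drives, had a Schisandrae Fructus response of -0.10 that did not pass and rose with Soshiho-tang (0.78).

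Most genes of the amino acid response run by ATF4 rose with both extracts. Of 31, 27 rose with Schisandrae Fructus, 30 rose with Soshiho-tang and 26 rose with both. The difference was lower for 24 and higher for 1, with a median of -0.42. ATF4 held 183, 194 and 204 CPM at high and 139, 145 and 148 CPM at low Schisandrae Fructus, against 437 and 421 CPM at high and 160.1 and 155 CPM at low Soshiho-tang. No groups of 1 extract overlapped (difference -1.02 ± 0.088, adjusted p = 3.10e-12). GDF15, a secreted stress cytokine, held 5.29, 6.19 and 6.13 CPM at high and 3.68, 2.75 and 2.93 CPM at low Schisandrae Fructus, against 27.8 and 28.4 CPM at high and 3.47 and 3.32 CPM at low Soshiho-tang, a difference of -2.14 ± 0.19. SESN2 (1.12 with Schisandrae Fructus, 2.18 with Soshiho-tang), PPP1R15A (0.22 with Schisandrae Fructus, 1.65 with Soshiho-tang), which restores translation, and DDIT3 (0.58 with Schisandrae Fructus, 1.71 with Soshiho-tang), the factor CHOP, rose more with Soshiho-tang.

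Some members rose by like amounts. MTHFD2, a mitochondrial folate enzyme, had responses of 0.80 with Schisandrae Fructus and 0.92 with Soshiho-tang, with an interval of -0.26 to 0.034, and DDIT4, an mTORC1 inhibitor, had 0.73 with Schisandrae Fructus and 0.75 with Soshiho-tang. VLDLR, a lipoprotein receptor, was the 1 member with a higher difference, at 0.97 with Schisandrae Fructus and 0.098 with Soshiho-tang.

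The promoter of CHAC1, a glutathione-degrading enzyme with responses of 0.82 with Schisandrae Fructus and 2.21 with Soshiho-tang, is shown as an example of this list because it holds the amino acid response element, searched as TGATGNAAN on both strands. The 250 bases before its start lie on the plus strand at chr15:40953221-40953470 in GRCh38.p14 (RefSeq), with the match in capitals.
CHAC1: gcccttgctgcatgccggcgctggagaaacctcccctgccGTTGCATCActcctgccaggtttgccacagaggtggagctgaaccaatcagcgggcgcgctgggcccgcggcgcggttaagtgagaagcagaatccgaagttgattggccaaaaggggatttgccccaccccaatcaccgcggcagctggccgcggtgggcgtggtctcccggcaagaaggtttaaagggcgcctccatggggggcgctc
The match lay on the minus strand, 210 bases before the start at its first base, and overlapped no other motif searched. Of the 26 listed genes with a window 8 held the motif, against 4.45% of all genes and 2.76% of tested genes. They were ATF3, CHAC1, ASNS, SLC3A2, SLC7A1, CEBPG, AARS1 and GARS1.

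NRF2 targets rose in part. Of 26, 13 rose and 2 fell with Schisandrae Fructus, 17 rose with Soshiho-tang, and the difference was higher for 2 and lower for 15. HMOX1, haem oxygenase 1, held 72.9, 77.2 and 78.7 CPM at high and 59.5, 57.8 and 61.5 CPM at low Schisandrae Fructus, against 454 and 459 CPM at high and 54 and 53.1 CPM at low Soshiho-tang. It was 1.28-fold higher at high than at low Schisandrae Fructus and 8.52-fold higher at high than at low Soshiho-tang, without overlap in either, a difference of -2.73 ± 0.096 (adjusted p = 7.84e-25). FTH1, the iron store ferritin, held 1261, 1221 and 1326 CPM at high and 1301, 1244 and 1355 CPM at low Schisandrae Fructus, which overlapped, against 2632 and 2608 CPM at high and 1375 and 1291 CPM at low Soshiho-tang. NQO1, a quinone reductase, had a Schisandrae Fructus response of -0.052 that did not pass and rose with Soshiho-tang (0.38), and SLC7A11, the cystine transporter, rose with both (0.32 with Schisandrae Fructus, 1.52 with Soshiho-tang). AKR1C1, whose close relatives can share its reads, ran the other way, with 1.69 with Schisandrae Fructus and 1.04 with Soshiho-tang.

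Immediate early genes, the first transcribed after a stimulus, numbered 25. Of these, 12 rose and 7 fell with Schisandrae Fructus, 16 rose with Soshiho-tang, and the difference was lower for 9. KLF4 held 4.75, 4.14 and 4.96 CPM at high and 4.65, 5.53 and 5.19 CPM at low Schisandrae Fructus, which overlapped, against 18.0 and 18.6 CPM at high and 6.15 and 5.71 CPM at low Soshiho-tang, a difference of -1.79 ± 0.16. KLF6 (0.28 with Schisandrae Fructus, 1.45 with Soshiho-tang) and DUSP5, a phosphatase of ERK (0.70 with Schisandrae Fructus, 1.58 with Soshiho-tang), rose with both, and JUND was opposite (-0.30 with Schisandrae Fructus, 1.10 with Soshiho-tang). DUSP1 (1.15 with Schisandrae Fructus, 1.01 with Soshiho-tang) and FOSL1 (0.95 with Schisandrae Fructus, 0.89 with Soshiho-tang) rose with both, and their differences did not pass.

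Of 21 p53 targets, 12 rose and 3 fell with Schisandrae Fructus, 9 rose and 1 fell with Soshiho-tang, and the difference was higher for 3 and lower for 8. CDKN1A, the cell cycle inhibitor p21, held 20.1, 21.5 and 20.9 CPM at high and 20.6, 22.6 and 24.3 CPM at low Schisandrae Fructus, which overlapped, against 37.5 and 36.4 CPM at high and 18.6 and 18.2 CPM at low Soshiho-tang. The difference was -1.11 ± 0.14 (adjusted p = 2.45e-08). PLK3 rose with both (0.35 with Schisandrae Fructus, 1.09 with Soshiho-tang), and ZMAT3 was opposite (0.18 with Schisandrae Fructus, -0.51 with Soshiho-tang).

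**Figure D3:**
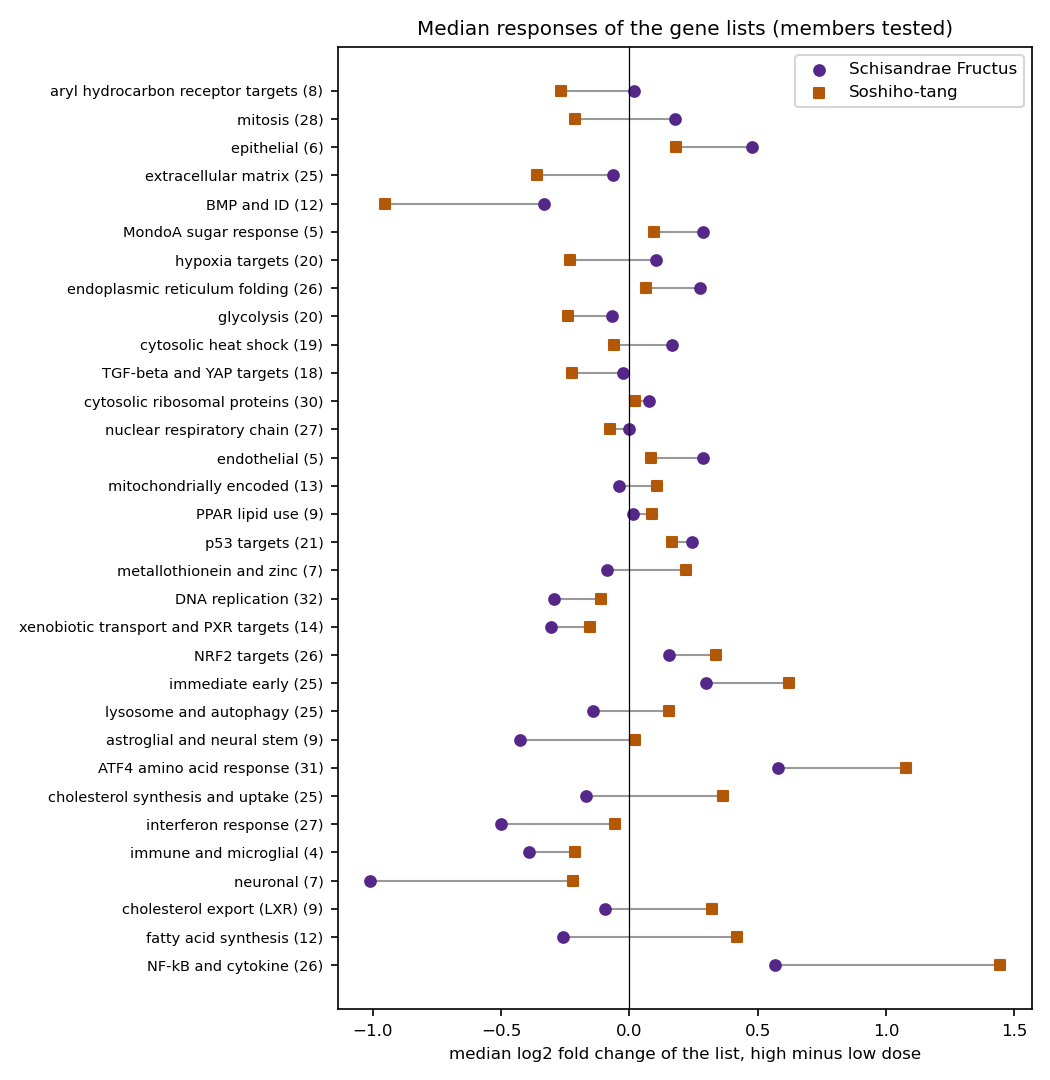
Median log2 fold change between high and low dose for the members tested of each of the 32 gene lists, for Schisandrae Fructus (circles) and Soshiho-tang (squares), ordered by the median difference. NF-kB and ATF4 lists lie right of 0 for both extracts, while mitosis, cholesterol and fatty acid lists lie on opposite sides of 0.

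Among the genes that rose with both extracts, THBD showed like responses. This gene encodes thrombomodulin, an anticoagulant receptor, and held 61, 59.5 and 58.7 CPM at high and 8.6, 8.99 and 8.78 CPM at low Schisandrae Fructus, against 30.7 and 31.5 CPM at high and 4.62 and 5.53 CPM at low Soshiho-tang. The levels of the extracts differed at both doses. The response was 2.76 ± 0.062 with Schisandrae Fructus and 2.60 ± 0.084 with Soshiho-tang, and the interval of the difference was -0.051 to 0.38. HOXB9, a homeobox factor, held 17.9, 16.5 and 18.0 CPM at high and 4.84, 5.30 and 6.37 CPM at low Schisandrae Fructus, against 18.8 and 17.7 CPM at high and 6.94 and 6.31 CPM at low Soshiho-tang. Both high-dose groups overlapped each other and stood clear of both low-dose groups, with an interval of -0.12 to 0.53.

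ADM2, a peptide of the adrenomedullin family, rose with both and more with Soshiho-tang (13.3, 14.1 and 12.4 CPM at high and 4.22, 3.99 and 3.59 CPM at low Schisandrae Fructus, 25.5 and 26.5 CPM at high and 4.36 and 4.46 CPM at low Soshiho-tang; difference -0.81 ± 0.16). KRTAP2-3, a keratin-associated protein with near-identical copies that can share its reads, rose more with Schisandrae Fructus (3.45 with Schisandrae Fructus, 2.44 with Soshiho-tang; difference 1.02 ± 0.24).

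Shared falls included LYPD1, a membrane protein that modulates nicotinic receptors. It held 12.4, 12.3 and 12.5 CPM at high and 35.8, 35.7 and 38.1 CPM at low Schisandrae Fructus, against 10.9 and 10.3 CPM at high and 34.5 and 32.1 CPM at low Soshiho-tang. The groups lay at nearly the same levels in both extracts, and the interval of the difference was -0.098 to 0.28. FAM13C (-1.94 with Schisandrae Fructus, -1.55 with Soshiho-tang) and HLF, a clock-linked factor (-1.77 with Schisandrae Fructus, -1.51 with Soshiho-tang), also fell with both, and their differences did not pass (adjusted p = 0.119 for FAM13C and 0.354 for HLF).

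LGR6, a receptor of R-spondins, held 0.337, 0.604 and 0.727 CPM at high and 5.66, 5.42 and 6.13 CPM at low Schisandrae Fructus, and 1.33 and 1.05 CPM at high and 5.99 and 4.89 CPM at low Soshiho-tang. VAV3, an exchange factor of small GTPases, held 2.16, 1.90 and 1.64 CPM at high and 12.9, 12.3 and 11.0 CPM at low Schisandrae Fructus, and 1.83 and 2.16 CPM at high and 7.83 and 8.27 CPM at low Soshiho-tang. Measured from the low doses, both fell more with Schisandrae Fructus. The difference was -1.16 ± 0.34 for LGR6 (adjusted p = 0.00905), a call lost without Soshiho-tang high-dose replicate 2 (-0.98). For VAV3 it was -0.66 ± 0.21 (adjusted p = 0.0158), a call lost in 3 of 21 alternatives. They left out Soshiho-tang high-dose replicate 3, left out Schisandrae Fructus high-dose replicate 3 (adjusted p = 0.0564), or compared the high doses directly. The direct comparison gave -0.073 for VAV3 (adjusted p = 0.776). Its high-dose levels were alike in both extracts, and its low-dose levels already stood apart. ITGB8, an integrin that activates TGF-beta, fell with both and far more with Schisandrae Fructus, where it held 5.15, 5.28 and 4.93 CPM at high and 39.4, 40.7 and 42.4 CPM at low dose, against 25.0 and 27.6 CPM at high and 38.5 and 38.5 CPM at low Soshiho-tang (difference -2.44 ± 0.16, adjusted p = 1.84e-15).

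Most BMP readouts fell with both extracts. Of 12 genes, 2 rose and 7 fell with Schisandrae Fructus, 2 rose and 9 fell with Soshiho-tang, 8 moved the same way, and the difference was higher for 5 and lower for 1. ID2, an inhibitor of differentiation, held 9.16, 8.85 and 8.85 CPM at high and 26.5, 23.7 and 25.9 CPM at low Schisandrae Fructus, against 6.22 and 5.36 CPM at high and 27.1 and 25.3 CPM at low Soshiho-tang. Both falls were clear of overlap, and the difference was 0.67 ± 0.15. ID1, a sister gene, had a Schisandrae Fructus response of 0.083 that did not pass and fell with Soshiho-tang (-1.21), and ID3 (-0.29 with Schisandrae Fructus, -1.31 with Soshiho-tang) and the inhibitory SMAD6 (-0.58 with Schisandrae Fructus, -1.53 with Soshiho-tang) fell with both. ID4 (-1.47 with Schisandrae Fructus, -1.47 with Soshiho-tang) and the ligand gene BMP4 (-1.50 with Schisandrae Fructus, -1.48 with Soshiho-tang) fell by nearly equal amounts, while BMP2 had a Schisandrae Fructus response of -0.26 that did not pass and rose with Soshiho-tang (1.19).

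**Figure D4:**
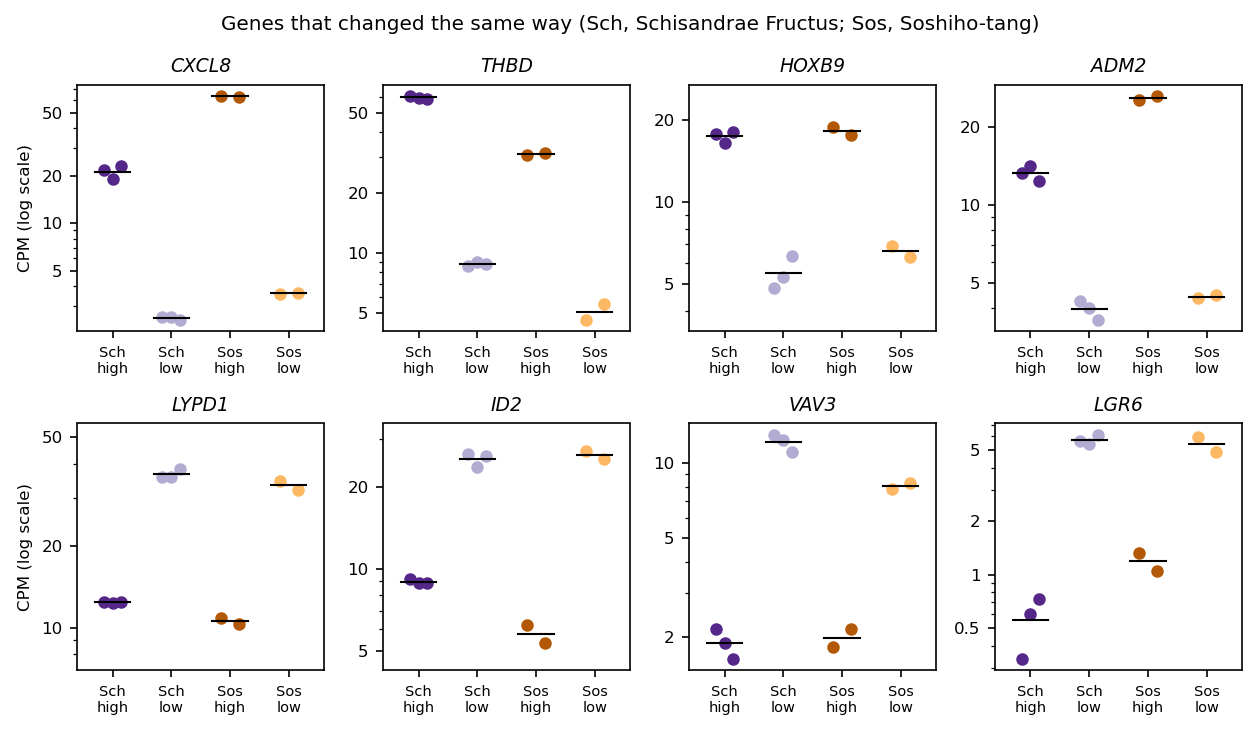
Levels in CPM (log scale) of 8 genes that rose (upper row) or fell (lower row) with both extracts, in the libraries of high and low Schisandrae Fructus and high and low Soshiho-tang; points are libraries and bars group means. HOXB9 and LYPD1 lie at nearly the same levels in both extracts, while CXCL8 and ADM2 stand higher at high Soshiho-tang.

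Of 9 astroglial and neural stem genes, 3 rose and 5 fell with Schisandrae Fructus, 1 rose and 2 fell with Soshiho-tang, and the difference was higher for 2 and lower for 4. The rises with Schisandrae Fructus were those of VIM (0.13), NFIA (0.40) and NFIB (0.36), of which VIM is an intermediate filament and the others are glial factors. SLC1A3, a glutamate transporter of astroglia, fell with both (-1.26 with Schisandrae Fructus, -0.85 with Soshiho-tang), and SOX9, a glial factor, fell with Schisandrae Fructus (43.0, 47.7 and 48.0 CPM at high, 71.9, 75.6 and 73.1 CPM at low) and did not pass with Soshiho-tang (78.2 and 77.7 CPM at high, 73.4 and 68.3 CPM at low). NES, nestin of neural stem cells, was opposite at low levels (-0.43 with Schisandrae Fructus, 0.33 with Soshiho-tang). Of 7 neuronal genes, 1 rose and 5 fell with Schisandrae Fructus, 3 fell with Soshiho-tang, and the difference was lower for 4. MAP2, a dendritic microtubule protein, held 1.52, 1.60 and 1.74 CPM at high and 5.08, 5.94 and 6.75 CPM at low Schisandrae Fructus, against 7.09 and 7.23 CPM at high and 6.10 and 5.88 CPM at low Soshiho-tang (difference -2.12 ± 0.24, adjusted p = 5.43e-09). SYT1 (-1.08) and SNAP25 (-0.56), proteins of vesicle release, differed the same way, as did PTPRC, the leukocyte phosphatase CD45 (-1.63). Immune and microglial genes numbered 4: 1 rose and 2 fell with Schisandrae Fructus, 2 fell with Soshiho-tang, and the difference was lower for 1. Epithelial genes numbered 6: 2 rose and 1 fell with Schisandrae Fructus, 1 rose and 2 fell with Soshiho-tang, and the difference was higher for 2. The epithelial keratin KRT8 was opposite (0.26 with Schisandrae Fructus, -0.42 with Soshiho-tang), and the claudin gene CLDN4 rose with both (1.34 with Schisandrae Fructus, 0.59 with Soshiho-tang).

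Of 8 genes of the aryl hydrocarbon receptor list, 2 rose and 2 fell with Schisandrae Fructus, 2 rose and 3 fell with Soshiho-tang, and the difference was higher for 5 and lower for 2, so 7 of 8 differed, against 24.1% of all genes. CYP1B1, a cytochrome P450 of this pathway, held 97.4, 87.7 and 92.7 CPM at high and 128, 127 and 131 CPM at low Schisandrae Fructus, against 33.7 and 34.3 CPM at high and 64.0 and 63.7 CPM at low Soshiho-tang. It fell with both, but the low doses already stood apart, and the difference of 0.43 ± 0.11 turned to -0.042 with the medium dose in place of the low one. The repressor AHRR had a Schisandrae Fructus response of 0.052 and fell with Soshiho-tang (-0.56), a difference that did not pass with the medium dose as reference (0.10, adjusted p = 0.636), the receptor gene AHR was opposite (-0.43 with Schisandrae Fructus, 0.56 with Soshiho-tang), and CYP1A1, at 1.65, 1.63 and 1.33 CPM at high and 1.43, 1.09 and 1.60 CPM at low Schisandrae Fructus and 0.333 and 0.262 CPM at high and 0.631 and 0.678 CPM at low Soshiho-tang, differed by 1.3 ± 0.39 (adjusted p = 0.0202), a call that was lost in 5 of 21 alternatives. Of 14 transporters and PXR targets, 8 fell with Schisandrae Fructus, against 23.6% of all genes, 2 fell with Soshiho-tang, and the difference was lower for ABCC3 (-0.52) and CES2 (-0.22). Of 7 metallothionein and zinc genes, SLC30A1, a zinc exporter, was opposite (-0.69 with Schisandrae Fructus, 0.27 with Soshiho-tang), SLC39A10, a zinc importer, rose with Schisandrae Fructus (0.89), and MT1E, 1 of a near-identical family, fell with it (-1.0).

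None of the 13 mitochondrially encoded genes passed in any comparison by edgeR. At an unadjusted p under 0.05 there was 1 with Schisandrae Fructus and 0 in the other comparisons, and DESeq2 called 1 with Schisandrae Fructus and 0 in the others. Of 30 cytosolic ribosomal protein genes, RPL3 and RPL4 rose with Schisandrae Fructus (0.24 for RPL3 and 0.17 for RPL4), and 0 passed with Soshiho-tang or in the difference by edgeR, by DESeq2 or at an unadjusted p under 0.05. Of 27 nuclear genes of the respiratory chain, 4 rose and 6 fell with Schisandrae Fructus, against 22.3% and 23.6% of all genes, and 1 fell with Soshiho-tang, and the difference passed for SDHA (0.64), UQCRC2 (0.25) and NDUFA9 (-0.35). Of 5 endothelial genes, 2 rose with Schisandrae Fructus; edgeR and DESeq2 called 0 with Soshiho-tang and 0 in the difference, where 1 and 0 had an unadjusted p under 0.05.

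The medium doses, 62 µg/mL for Schisandrae Fructus and 100 µg/mL for Soshiho-tang, were not tested against the low doses. Levels at them are given here for some genes. TXNIP held 9.53, 9.25 and 8.59 CPM at low, 14.2, 12.8 and 15.2 CPM at medium and 295, 276 and 289.5 CPM at high Schisandrae Fructus, and 8.57 and 9.49 CPM at low, 8.98 and 8.73 CPM at medium and 19 and 20.1 CPM at high Soshiho-tang. HMOX1 held 54 and 53.1 CPM at low, 60.4 and 61.8 CPM at medium and 454 and 459 CPM at high Soshiho-tang, so nearly all of its change lay in the last step. CXCL8 held 2.56, 2.56 and 2.45 CPM at low, 3.72, 3.99 and 3.91 CPM at medium and 21.7, 18.9 and 22.9 CPM at high Schisandrae Fructus, and 3.57 and 3.64 CPM at low, 5.50 and 6.03 CPM at medium and 63.9 and 62.5 CPM at high Soshiho-tang, with the medium libraries above the low ones in both. CYP1B1 held 128, 127 and 131 CPM at low and 127, 128 and 132 CPM at medium Schisandrae Fructus, which overlapped, and 64.0 and 63.7 CPM at low and 47.2 and 44.9 CPM at medium Soshiho-tang, where the medium libraries lay below the low ones.

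**Figure D5:**
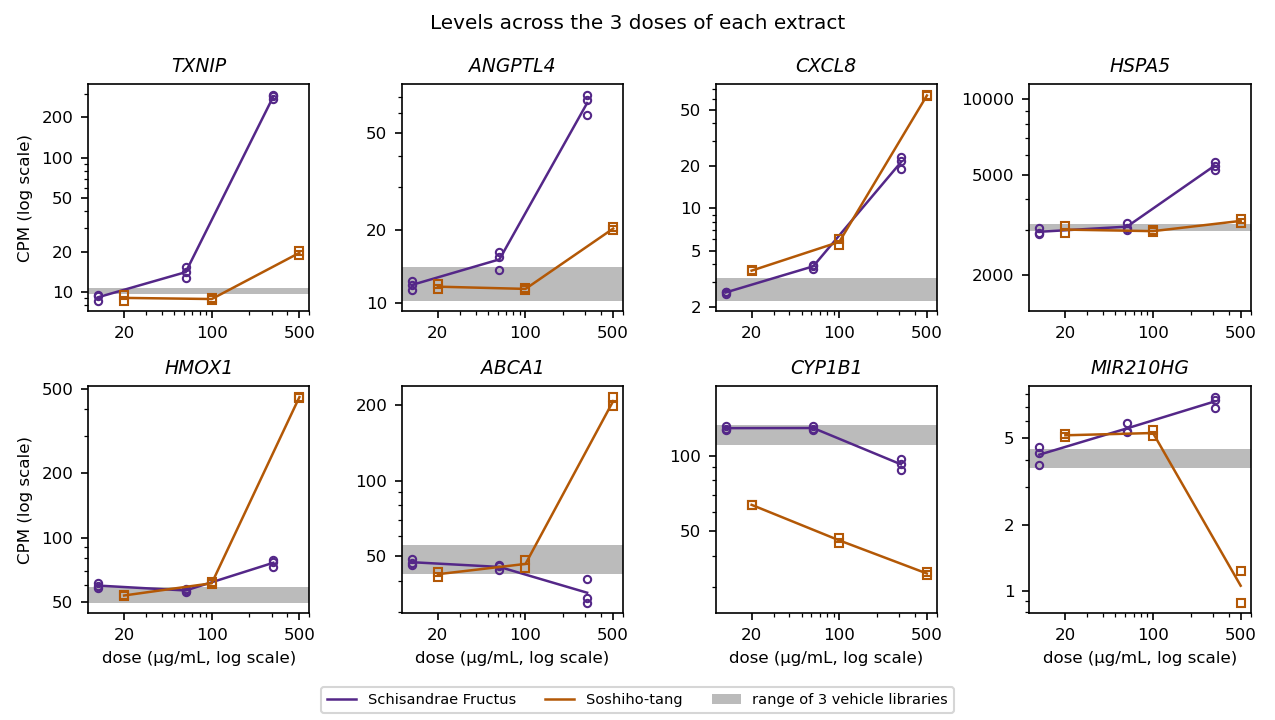
Levels in CPM (log scale) of 8 genes against dose in µg/mL (log scale) for Schisandrae Fructus (circles) and Soshiho-tang (squares); symbols are libraries, lines join group means and the grey band spans the 3 vehicle libraries, which lie in another library set. TXNIP, ANGPTL4 and HSPA5 stand farthest above the band at high Schisandrae Fructus, and HMOX1 and ABCA1 at high Soshiho-tang. To a lesser degree TXNIP, ANGPTL4 and HSPA5 also lie above it at high Soshiho-tang, and HMOX1 at high Schisandrae Fructus. CYP1B1 lies below the band at each dose of Soshiho-tang and at high Schisandrae Fructus.

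The genes that differed also differed in composition. Those with the higher response to Schisandrae Fructus had a median GC content of 51% over the longest transcript, those with the lower response 45.6%, and all genes tested 48.3%. Median lengths of the longest transcript were 3478 bases for the genes with the higher response to Schisandrae Fructus, 3865 bases for those with the lower and 3148 bases for all. With a correction for both per library, 4001 of the 4310 differences passed again, among 5212 that passed of 17716 genes. Then 2735 genes were higher and 2477 lower, against 1949 and 2361 without the correction. The correction also takes out any response that follows GC content or length, so it cannot tell their part in the calls.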

How the data were processed

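RNA of SW1783 cells was sequenced in 60 libraries, of which the 54 libraries of the 19 groups with 2 or more libraries were fitted together, so that they share 1 estimate of the spread, and 10 entered the contrast. The authors deposited expected counts per gene made with RSEM, which share reads that match several genes, so 10.86% of the values were not whole; all were rounded. Per the submitters' processing notes the tools were FastQC 0.11.9, Trim Galore 0.6.5, STAR 2.7.3a and RSEM 1.3.3 with hg38; for the annotation release and strand setting, the sources used here give nothing. The vehicle was DMSO, 0.1% per the labels and 2% per the design text, and it entered no comparison.

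The members, gene lists, tests and alternatives were chosen with earlier results of these data known; 1 alternative, counts thinned to a common depth of 18.73 M, was added after the data were seen. Counts were normalized with edgeR's trimmed mean of M values (TMM), filtered with edgeR's default (17851 genes kept, 17600 with a symbol) and entered a quasi-likelihood F test in edgeR 4.0.16 in R 4.3.3 (35 residual and 6.31 prior degrees of freedom, median trended dispersion 0.00396). p-values were adjusted by Benjamini-Hochberg over all genes tested. A standard error is the absolute log2 fold change divided by the square root of F, and intervals of 95% use the t quantile. CPM of the scaled library size, log2 CPM (prior count 2) and the GC content and lengths from GENCODE 29 were computed from the files. Fold changes are those of the quasi-likelihood fit. DESeq2 1.42.0 was an alternative. Promoters come from RefSeq (GRCh38.p14). The models were tested on simulated data.

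Total counts per library set the precision, and the 10 libraries held 19.02 to 32.57 M. The chi-square per degree of freedom between libraries of a group lay between 2.24 and 11.29, so none was a copy of another. High-dose replicate 1 of Schisandrae Fructus stood apart, with 8.77 against replicate 2 and 11.29 against replicate 3. Replicates 2 and 3 gave 4.26, and the pairs of the other groups less. Without replicate 1 no named gene changed its call. Genes were named at 5 CPM or more in any of the 4 groups: the 8 largest differences each way that separated all libraries, the 8 opposite genes each way and the 6 shared genes each way with the largest smaller response, up to 4 members of each list with the lowest adjusted p of the difference, and 12 genes followed throughout. This named 139 genes, some of which are not reported here. Other members of a list are given as examples of it and were chosen after their values were seen.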

Additional observations from a re-analysis of the deposited data

Results flagged for a closer look

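TXNIP differed at a dose that no comparison of the report tested: all 3 libraries at the medium dose of Schisandrae Fructus (14.2, 12.8 and 15.2 CPM) stood above all 3 at its low dose (9.53, 9.25 and 8.59 CPM) and above the 3 vehicle libraries (10.8, 10.5 and 9.68 CPM). The mean at the medium dose was 1.54 times that at the low dose. At the medium dose of Soshiho-tang TXNIP held 8.98 and 8.73 CPM, within the range of its low-dose libraries (8.57 and 9.49 CPM). The medium dose was not tested against the low dose.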

How the results depend on the processing

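The contrast was recomputed under 21 alternatives. Of 139 named genes, 121 kept the direction of their difference and their side of the threshold in all of them, and 18 did not in some. Comparing the high doses directly, with no low-dose reference, called 6834 genes, of which 4157 are among the 4310, and library set then no longer cancels. It turned HOXB9 to -0.062; the medium dose as reference turned THBD to -0.042 and CYP1B1 to -0.042; counts thinned to a common depth turned HLF to 0.044. Of these, only CYP1B1 had passed. Leaving out 1 library gave 3221 to 4312 differences, 7292 to 8166 genes for Schisandrae Fructus, 2149 to 3363 for Soshiho-tang, 1305 to 1824 shared and 246 to 381 opposite genes, and 14 lists with a median difference above 0 each time, as with all libraries. A group left with 1 library was assumed to vary like the others. Replicate numbers showed no sign of pairing the Schisandrae Fructus samples, where the correlations of same-numbered deviations were -0.18, -0.14 and -0.090. For Soshiho-tang they were -0.035, but with 2 libraries a dose these values can differ only in sign and say little. With the replicate block 2031 genes were higher and 2460 lower, and no named gene changed its call. Upper quartile normalization gave 2180 higher and 2131 lower, DESeq2 1959 and 2149, no filter 1688 and 2008 of 38487 genes, the 10 libraries alone 2324 and 2569, the medium dose as reference 1612 and 2055, and thinned counts 1800 and 2014. Calls lost in some settings were those of AHRR, CES2, CLDN4, CPT1A, CYP1A1, KRT8, LGR6, NDUFA9, SLC1A3, UQCRC2 and VAV3; the cause was not tested. Soshiho-tang had 2 libraries a dose, which limits the precision of its responses.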
